A study of Homo sapiens with 27 samples.

Results

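The 10 genes described here are the transcription factors that drive epithelial-to-mesenchymal transition (EMT), SNAI1, SNAI2, TWIST1, ZEB1 and ZEB2, and the genes that hold the epithelial state, OVOL1, OVOL2, ESRP1, ESRP2 and CDH1. They were taken by name from a table of 26485 genes, and all 10 were found. Their RNA was counted in 12 libraries of T47D, an established line of luminal breast cancer, from 4 stable cell pools with 3 libraries each. The control pool carried the empty pHAGE lentiviral vector. The other pools carried the same vector with a GATA3 truncation mutant, named Splice del (a deletion of a splice site), C321fs or A333fs (frameshifts), each made as a fusion with a Ty1 tag. GATA3 is a transcription factor of the luminal lineage, and the cells kept their own wild-type GATA3. All pools were selected with puromycin. With 1 pool for each mutant, a difference between pools cannot be told apart from a difference between mutants. The study calls the libraries biological replicates. How the cultures of a pool were kept apart is not given in the sources used here, and p-values measure the spread between libraries of 1 pool.

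EMT is the program by which epithelial cells lose their junctions and become motile. SNAI1 and SNAI2 (Snail and Slug) and ZEB1 and ZEB2 are zinc finger repressors that bind E-box DNA, and TWIST1 is a basic helix-loop-helix factor that binds related E-boxes. Their best known target is CDH1, which encodes E-cadherin, the adhesion protein of epithelial junctions. OVOL1 and OVOL2 are zinc finger repressors that oppose ZEB1, and ESRP1 and ESRP2 are RNA-binding proteins that set the epithelial splice forms of genes such as FGFR2 and CD44. ZEB1 and ZEB2 are in turn held down in epithelial cells by the miR-200 family and by miR-205.

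These miRNAs are shown because ZEB1 and ZEB2 were among the 3 members that were barely detected. The sequences are RefSeq mature forms on GRCh38.p14, printed 5′ to 3′ with the seed, bases 2 to 8, in capitals. The first 3 share 1 seed, the next 2 share another that differs from it, and miR-205 has its own.
hsa-miR-200b-3p: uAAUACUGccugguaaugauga
hsa-miR-200c-3p: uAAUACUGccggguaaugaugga
hsa-miR-429: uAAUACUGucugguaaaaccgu
hsa-miR-200a-3p: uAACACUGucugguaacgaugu
hsa-miR-141-3p: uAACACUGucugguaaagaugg
hsa-miR-205-5p: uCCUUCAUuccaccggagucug

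E-boxes of the form CAGGTG, or CACCTG on the other strand, are the sites that SNAI and ZEB proteins bind, and ZEB1 carries them at its own start. RefSeq promoter windows of 300 bases, from 250 before to 50 after a transcript start, were at hand for ZEB1 and ZEB2. They were not at hand for SNAI1, TWIST1, OVOL1, OVOL2, ESRP2 and CDH1. Of 7 ZEB1 windows, 2 held CAGGTG or CACCTG, as did 20.59% of all 35116 windows. The ZEB1 window nearest to the gene's start in the count table held 3 such E-boxes. They are printed on the plus strand with the E-box in capitals, each with 30 bases in all.
ZEB1 chr10:31318966-31318995: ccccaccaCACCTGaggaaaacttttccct
ZEB1 chr10:31319119-31319148: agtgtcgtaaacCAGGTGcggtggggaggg
ZEB1 chr10:31319236-31319265: tggcggatggcccCAGGTGtaagcgcagaa
The single ZEB2 window held none of these E-boxes. The wider form CANNTG was in 4 of the 7 ZEB1 windows and in the ZEB2 window, against 68.68% of all windows. The motif of GATA factors was spelled AGATAA or AGATAG, or either of these with T as the first base, on both strands. It was in 0 of the 7 ZEB1 windows and in the ZEB2 window, against 24.97% of all windows. A match of letters is a description and does not show binding.

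The members fell into 3 classes of level. On the TPM scale, where counts are divided by exon length and every library has the same total, CDH1 averaged 255 TPM over the 12 libraries, ESRP2 162 TPM and ESRP1 148 TPM. Among the 26485 genes, 97.6% had a lower mean TPM than CDH1, 95.7% a lower one than ESRP2 and 95.2% a lower one than ESRP1. OVOL2 followed with 17.8 TPM and OVOL1 with 4.61 TPM. By mean level the EMT factors came below all the guardians, TWIST1 with 2.03 TPM, SNAI1 with 1.44 TPM, ZEB2 with 0.0169 TPM, SNAI2 with 0.00883 TPM and ZEB1 with 0.0050 TPM. Fragments per kilobase, scaled to depth, gave the same order. The ranges of neighbours over the 12 libraries overlapped between ESRP2 (135 to 181 TPM) and ESRP1 (116 to 178 TPM), between TWIST1 (1.45 to 3.32 TPM) and SNAI1 (0.661 to 2.04 TPM), and among ZEB2, SNAI2 and ZEB1. The ranges of OVOL1 (3.09 to 5.53 TPM) and TWIST1 also overlapped, although OVOL1 was above TWIST1 within each library. The range of CDH1, 206 to 319 TPM, lay above that of ESRP2. The 5 guardians summed to 525 to 688 TPM in a library, and the 5 EMT factors to 2.27 to 4.29 TPM.

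**Figure D1:**
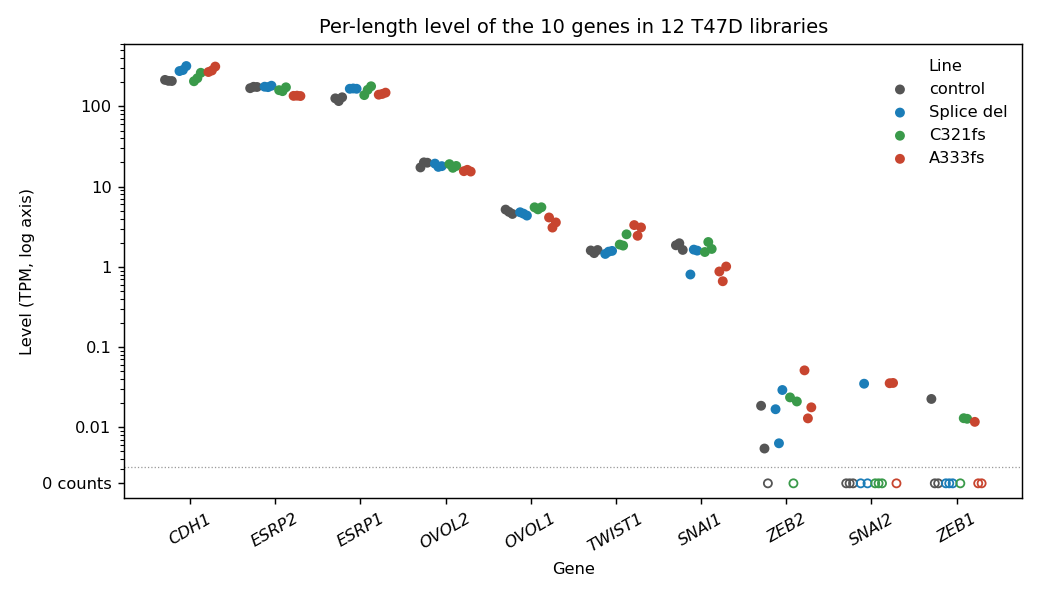
Level of each gene in each of the 12 libraries, in TPM on a log axis, with genes in order of their mean level and libraries coloured by line; open circles at the foot are libraries with 0 counts. CDH1, ESRP2 and ESRP1 lie at 116 TPM or more in every library, and ZEB2, SNAI2 and ZEB1 at 0.0512 TPM or less.

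SNAI2, ZEB1 and ZEB2 had too few counts to pass edgeR's filter on low counts, and the other 7 members passed it, among 14789 tested genes. The floor for a gene in a line means that none of the line's libraries had more than 3 counts. SNAI2, which encodes Slug, had 0 counts in the 3 control and the 3 C321fs libraries, 0, 1 and 0 in Splice del and 1, 1 and 0 in A333fs libraries. It was at the floor in all 4 lines. ZEB1 had 2, 0 and 0 counts in control, 0 in each Splice del library, 0, 1 and 1 in C321fs and 1, 0 and 0 in A333fs libraries, and was also at the floor in all 4 lines. In 1 library, 3 counts equal 0.0774 to 0.1045 CPM, a count relative to the normalized library total. The limit of 3 counts was a choice and was not set by depth. The 1 count of SNAI2 in Splice del replicate 2 equals 0.0296 CPM. ZEB2 had 3, 1 and 0 counts in control libraries, while Splice del had 3, 1 and 4, C321fs had 4, 0 and 3, and A333fs had 8, 2 and 3. It was at the floor in control only, and its counts overlapped between all lines. An exact permutation test over all arrangements of the libraries, two-sided and on CPM, gave p = 0.182 for SNAI2, p = 0.618 for ZEB1 and p = 0.522 for ZEB2, or 0.546, 0.618 and 0.618 after Benjamini-Hochberg adjustment over these 3 genes. No difference between lines was detectable for them at this depth. ZEB2 shares exon sequence with ZEB2-AS1 on the other strand, and fragments there were not counted for either gene.

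The gene next to ZEB1 was read much more often. ZEB1-AS1 is an antisense RNA that starts 77 bases from ZEB1 and runs the other way, with no exon in common with ZEB1 in the count table. It had 70 to 120 counts in every library, where ZEB1 had 0 to 2. Control cells had 2.59 ± 0.208 CPM of it (SD, n = 3), Splice del cells 2.69 ± 0.176, C321fs cells 3.46 ± 0.108 and A333fs cells 3.39 ± 0.314. It was not called in any comparison with control. Its values of log2 fold change, 0.42 for C321fs (edgeR quasi-likelihood adjusted p = 0.00996) and 0.39 for A333fs (adjusted p = 0.0121), were under the fold limit. The CAGGTG printed second above lies between the starts of the 2 genes.

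In A333fs cells, 3 members passed the test against control, SNAI1 and OVOL1 lower and TWIST1 higher. In Splice del and C321fs cells none passed. A gene was called at an edgeR quasi-likelihood adjusted p under 0.01 with a fold change over 1.5, over all 14789 genes. Read against all tested genes, 0 of 7 members were called against 10.7% of genes with Splice del, 0 of 7 against 6.88% with C321fs and 3 of 7 against 12.3% with A333fs. DESeq2 called 0, 0 and 3 members. At an unadjusted p under 0.05, edgeR counted 6, 3 and 6 of the 7. The share of all tested genes at that p was not counted, here or for the mutant pairs and lists below. It can be no smaller than the share at an adjusted p under 0.01, given next. Counts at an unadjusted p are therefore no result about the members or the lists. At an adjusted p under 0.01 with no fold limit, edgeR counted 2, 1 and 6 of the 7. The same counts over all 14789 tested genes were 6080, 5449 and 7014. The median log2 fold change of the 7 members was -0.31, -0.07 and -0.46 in these comparisons, beside 0.03, 0.02 and 0.01 over all tested genes. The 3 comparisons share the control libraries.

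SNAI1, the Snail repressor (chromosome 20, 49982976 to 49988883 on hg38), had 1.49, 1.70 and 1.32 CPM in the control libraries and 0.646, 0.479 and 0.734 CPM in the A333fs libraries. These rest on 38 to 53 counts in control and 15 to 25 counts in A333fs cells. All A333fs libraries were below all control libraries. SNAI1 fell 2.42-fold (log2 fold change -1.27, SE 0.27, edgeR adjusted p = 7.34e-04). In Splice del cells it had 0.542, 1.12 and 1.11 CPM, also below every control library, with a log2 fold change of -0.73 (SE 0.25, adjusted p = 0.0199) that missed the threshold. Splice del replicate 1 lay at about the level of the A333fs libraries, and the other two just under control. Without that library the log2 fold change was -0.43. The 1.16, 1.46 and 1.13 CPM of C321fs libraries overlapped control (a log2 difference of -0.28, adjusted p = 0.346).

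TWIST1 (chromosome 7, 19115468 to 19117672) moved the other way in A333fs cells. It had 1.26, 1.25 and 1.29 CPM in control and 2.39, 1.72 and 2.20 CPM in A333fs libraries, on 37 to 39 and 54 to 75 counts. TWIST1 rose 1.66-fold (log2 fold change 0.73, SE 0.17, edgeR adjusted p = 0.00156), and the groups did not overlap. Splice del libraries had 0.955, 1.03 and 1.08 CPM, all below control, with a log2 fold change of -0.31 (adjusted p = 0.183). C321fs libraries had 1.40, 1.28 and 1.69 CPM, which overlapped the control range (log2 fold change 0.21, adjusted p = 0.359).

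OVOL1 (chromosome 11, 65787034 to 65797219), a repressor of mesenchymal genes, had 7.36, 7.41 and 6.56 CPM in control and 5.39, 3.96 and 4.61 CPM in A333fs libraries. It fell 1.53-fold (log2 fold change -0.61, SE 0.11, edgeR adjusted p = 2.04e-04), just past the fold limit. Without control replicate 2 the log2 fold change was -0.58 and without A333fs replicate 2 it was -0.48, both under that limit. Splice del libraries lay between, at 5.73, 5.59 and 5.40 CPM (log2 fold change -0.35, adjusted p = 0.0117). C321fs libraries, at 7.40, 6.59 and 6.64 CPM, were within the spread of control.

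ESRP2, the splicing regulator, was lower than control in all 3 mutant lines after TMM scaling, with small changes. In Splice del and C321fs cells the result depended on the scaling. It had 320, 358 and 334 CPM in control (chromosome 16, 68228547 to 68236233), 280, 281 and 299 CPM in Splice del, 284, 261 and 277 CPM in C321fs and 235, 232 and 231 CPM in A333fs libraries. Every mutant library was below every control library on this scale. The log2 fold changes were -0.23, -0.30 and -0.53 in that order (edgeR adjusted p = 0.00179, 3.55e-04 and 1.22e-06), all under the fold limit. Scaled by library totals, the log2 fold change in Splice del cells was -0.05 (edgeR adjusted p = 0.4), with libraries that overlapped control, and the mean level was 177 TPM against 173 TPM in control. By library totals the log2 fold change was -0.13 in C321fs cells (edgeR adjusted p = 0.0263) and -0.39 in A333fs cells (adjusted p = 4.59e-06). ESRP2 overlaps NFATC3 on the other strand at its end, so that part of it was not counted.

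ESRP1, its close relative, was not lower than control as counted. Its log2 fold changes were negative with the trend over GC content and length removed, and positive when scaled by library totals. ESRP1 (chromosome 8, 94641136 to 94707466) had 226, 225 and 235 CPM in control, 250, 256 and 259 CPM in Splice del, 233, 257 and 270 CPM in C321fs and 231, 231 and 241 CPM in A333fs libraries. The log2 fold changes were 0.16, 0.15 and 0.03 (edgeR adjusted p = 0.0238, 0.0336 and 0.617). On this scale, of the 3 mutants, Splice del alone stood clear of control. The 95% interval in A333fs cells ran from -0.08 to 0.15, against -0.65 to -0.42 for ESRP2. With the trend removed, ESRP1 was at -0.27 in A333fs cells (edgeR adjusted p = 4.68e-05) and ESRP2 at -0.32 (adjusted p = 1.45e-06), both under the fold limit, and their intervals, -0.35 to -0.18 and -0.40 to -0.24, overlapped.

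OVOL2 (chromosome 20, 18024152 to 18059188) had 15.2, 18.9 and 17.6 CPM in control, 14.2, 13.2 and 13.7 CPM in Splice del, 15.7, 13.4 and 13.4 CPM in C321fs and 12.5, 12.8 and 12.2 CPM in A333fs libraries. Its log2 fold changes were -0.33, -0.28 and -0.46 (edgeR adjusted p = 0.00498, 0.0141 and 3.42e-04), and none passed the fold limit. Libraries of C321fs cells overlapped control, and those of the other 2 mutants did not on this scale. This result too depended on the scaling. By library totals the log2 fold changes of OVOL2 were -0.14, -0.11 and -0.31 (edgeR adjusted p = 0.148, 0.248 and 0.00354).

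CDH1 (chromosome 16, 68737292 to 68835541), the gene of E-cadherin, was not lower than control beyond its error in any mutant line. It had 486, 508 and 475 CPM in control, 526, 549 and 629 CPM in Splice del, 439, 453 and 503 CPM in C321fs and 559, 572 and 644 CPM in A333fs libraries. The log2 fold changes were 0.21, -0.07 and 0.27 (edgeR adjusted p = 0.0228, 0.423 and 0.00481), all under the fold limit. The lower ends of the 95% intervals were 0.06, -0.23 and 0.12. By library totals the log2 fold changes of CDH1 were 0.40, 0.09 and 0.42 (edgeR adjusted p = 1.6e-04, 0.271 and 8.73e-05), also under the fold limit.

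Libraries of a mutant and of control did not overlap for 7 of the 7 members in Splice del cells, for 1 of 7 (ESRP2) in C321fs cells and for 6 of 7 (all but ESRP1) in A333fs cells. Over all tested genes the shares were 62.9%, 54.1% and 65.5%. Scaled by library totals, the counts were 4 of 7 (TWIST1, OVOL2 and ESRP2 overlapped control), 3 of 7 (TWIST1, ESRP1 and ESRP2) and 7 of 7, beside 69.1%, 55.8% and 67.2% of all genes. An F-test of any difference among the 4 lines gave an edgeR adjusted p under 0.01 for 6 of the 7 members, beside 56.2% of all genes. The exception was ESRP1 (F-test adjusted p = 0.0341). Which members passed depended on the processing. With the trend over GC content and length removed, 5 passed, with ESRP1 among them and without SNAI1 and OVOL2. Upper-quartile scaling gave 7, and library totals gave 6 with ESRP1 and without OVOL2. Leaving out 1 library gave 4 to 7.

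The control libraries differed from the mutant libraries in a trend of counts over GC content. Per 10 percentage points of GC content, log2 CPM over the tested genes changed by 0.11 to 0.19 in control libraries. The change was -0.11 to -0.02 with Splice del, -0.12 to 0.01 with C321fs and -0.22 to -0.13 with A333fs. The trend and the line cannot be told apart by design, and the members differ in GC content. ESRP2 (56.3%), TWIST1 (57.2%), OVOL1 (58.1%), SNAI1 (58.4%) and OVOL2 (59.2%) are richer in GC than CDH1 (48.2%) and ESRP1 (42.8%). With a trend over GC content and length removed from each library, SNAI1 (log2 fold change -1.01, edgeR adjusted p = 0.0049) and TWIST1 (0.97, adjusted p = 2.44e-04) still passed in A333fs cells. OVOL1 did not (-0.34, adjusted p = 0.0117). ESRP1 turned from higher to lower than control, to -0.10, -0.09 and -0.27 in the lines in that order. ESRP2 was at -0.13, -0.18 and -0.32 (edgeR adjusted p = 0.00535, 6.91e-04 and 1.45e-06). OVOL2 was at -0.16, -0.15 and -0.18 (adjusted p = 0.0488, 0.083 and 0.0355). CDH1 was at 0.11, -0.12 and 0.17 (edgeR adjusted p = 0.141, 0.111 and 0.0292). Thus OVOL2 and CDH1 no longer had an adjusted p under 0.01 in any line. Scaling by library totals instead of TMM raised the median of all genes from 0.03, 0.02 and 0.01 to 0.22, 0.19 and 0.16 in the 3 comparisons and turned OVOL1 (0.12) and CDH1 (0.09) positive for C321fs.

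**Figure D2:**
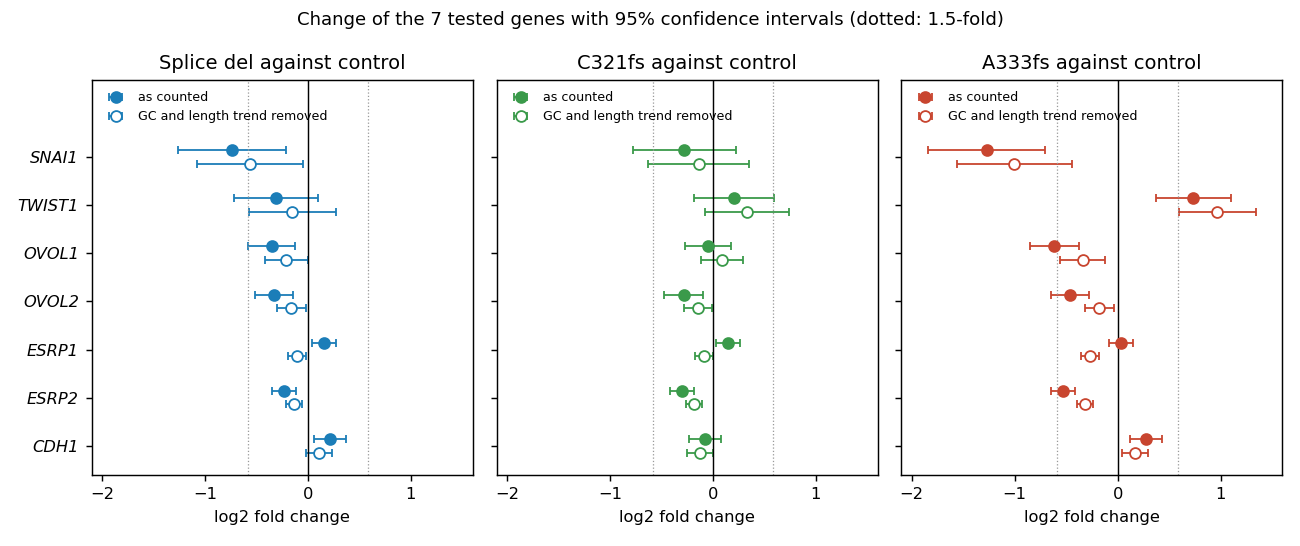
Log2 fold change of the 7 tested genes in each mutant line against control with 95% confidence intervals, from the counts as deposited (filled) and with the trend over GC content and length removed (open); dotted lines mark 1.5-fold. SNAI1 and TWIST1 lie outside the dotted lines on opposite sides in A333fs cells in both fits, and ESRP1 changes sign.

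Among the mutants, TWIST1 separated A333fs from Splice del cells. It was higher in A333fs than in Splice del cells by 1.04 on the log2 scale (SE 0.17, edgeR adjusted p = 5.58e-04), or 2.06-fold, and was the only member called of 7 (3.0% of all genes). Splice del against C321fs called 0 of 7 members (2.64% of all genes), as did DESeq2, with 3 at an unadjusted p under 0.05 in edgeR. A333fs against C321fs also called 0 of 7 in edgeR and DESeq2 (5.55% of all genes), with 5 at an unadjusted p under 0.05. At an edgeR adjusted p under 0.01 with no fold limit, 0 and 3 members passed in these comparisons. Of all 14789 tested genes, 935 and 2320 did. SNAI1 was lower in A333fs than in the C321fs line (log2 fold change -0.996, adjusted p = 0.0135), and so was OVOL1 (-0.57, adjusted p = 0.00131), under the fold limit. CDH1 was higher in A333fs than in the C321fs line (log2 fold change 0.35, adjusted p = 0.00258) and ESRP2 lower (-0.23, adjusted p = 0.00454), both under that limit.

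A pair of ratios within a library, chosen after the values were seen and given with no test, puts these differences on a scale that needs no normalization. Counts of TWIST1 per base over those of SNAI1 gave 0.861, 0.754 and 0.997 in control libraries. Splice del libraries gave 1.80, 0.943 and 0.992, C321fs libraries gave 1.24, 0.902 and 1.52, and the ratios were 3.79, 3.69 and 3.07 in A333fs libraries. The A333fs libraries lay above all others, with SNAI1 the more abundant RNA in control and TWIST1 in A333fs cells. The pair is close in GC content, and the log2 ratio in A333fs cells relative to control was 2.01 as counted and 1.97 with the trend removed. ESRP1 over ESRP2, per base, averaged 0.718 ± 0.047 (SD, n = 3) for control, 0.940 ± 0.023 in the Splice del line, 0.979 ± 0.096 in the C321fs line and 1.06 ± 0.035 in the A333fs line. That pair differs in GC content. Its log2 ratio relative to control was 0.39, 0.45 and 0.57 as counted and 0.03, 0.09 and 0.05 with the trend removed.

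**Figure D3:**
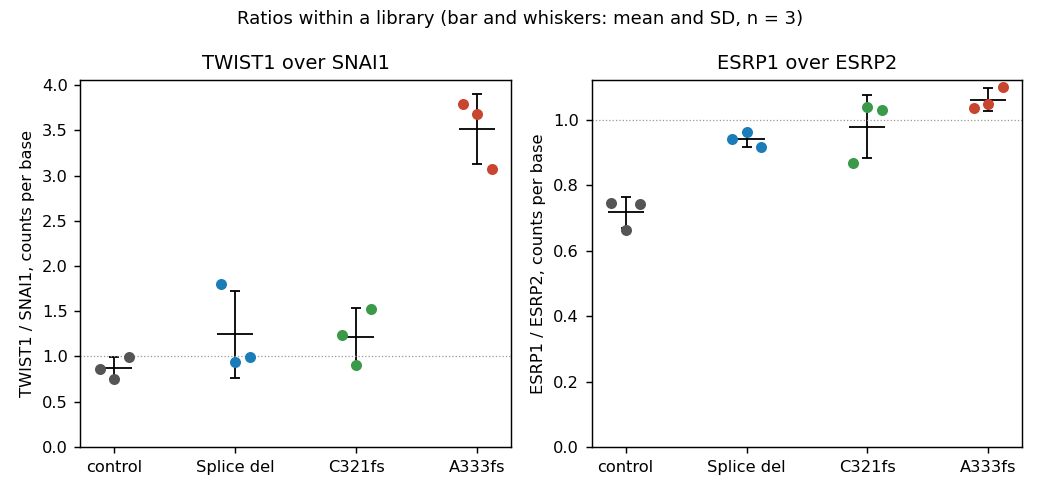
Ratio of TWIST1 to SNAI1 and of ESRP1 to ESRP2 in each library, from counts per base of exon, with the mean and SD of the 3 libraries of a line; the dotted line marks equal levels. The TWIST1 to SNAI1 ratio lies between 3.07 and 3.79 in A333fs libraries and between 0.754 and 1.80 in all others.

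The other genes of the program were taken in 10 lists. Of 12 further EMT transcription factors, 8 were tested, and 0 rose and 1 fell in each mutant line. FOXC1, a forkhead factor, fell in Splice del (log2 fold change -0.85) and A333fs cells (-0.93), and TCF4, an E-protein partner of TWIST1, fell in C321fs cells (-0.64; edgeR adjusted p = 6.4e-06, 2.55e-06 and 0.00802). TWIST2 had 0 counts, FOXC2 and FOXQ1 at most 1 and PRRX1 at most 2 in any library. The list's median log2 fold changes were -0.02, 0.01 and -0.03, beside 0.03, 0.02 and 0.01 over all genes, and 0.0004, 0.01 and 0.07 with the GC trend removed.

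Of 14 further epithelial regulators, all tested, 1 rose and 1 fell with Splice del, 1 rose and 0 fell with C321fs, and 2 rose and 1 fell with A333fs. EHF, an epithelial ETS factor, rose in Splice del (0.76) and A333fs cells (0.65). SPDEF, a luminal ETS factor, fell in A333fs cells (-0.74). GRHL3, a grainyhead factor of epidermis, fell in Splice del cells (-0.66; edgeR adjusted p = 5.01e-07, 1.64e-06, 9.2e-07 and 7.18e-04). With the GC trend removed, EHF and SPDEF were under the fold limit, and GRHL3 was still called. The list's medians were -0.03, 0.11 and 0.02. GRHL2, the grainyhead factor that activates CDH1, had 233 ± 4.06 CPM in control and 231 to 254 CPM on average in the mutants, and was not called.

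Of 12 cofactors of the SNAI and ZEB repressors, 11 were tested. AJUBA, a LIM protein that binds SNAI1, fell in Splice del cells (-0.66, edgeR adjusted p = 3.36e-07), and none was called in C321fs or A333fs cells, where 5 and 5 had an unadjusted p under 0.05 and DESeq2 called 0. The medians were -0.03, -0.01 and -0.03. Of 10 genes of the E-cadherin adhesion complex, 0 were called in Splice del and C321fs cells (7 and 6 at an unadjusted p under 0.05; DESeq2 0 and 1) and 2 fell in A333fs cells. These were PVRL1 (nectin-1; -0.79) and JUP (plakoglobin; -0.64), with adjusted p = 6.74e-08 and 4.02e-06 in edgeR, and with the GC trend removed neither was called. The medians were -0.09, -0.15 and -0.08.

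Among 7 other cadherins, 2 were tested and 0 were called in edgeR and DESeq2, with 2, 0 and 1 at an unadjusted p under 0.05. CDH2, the N-cadherin that often replaces E-cadherin in EMT, had 0 to 3 counts in every library, and CDH11 had 0 to 1. CDH6, also untested, had 0 to 14 counts. It was at 0 CPM in all control and C321fs libraries, at 0.339 ± 0.093 CPM in Splice del and at 0.061 ± 0.053 CPM in A333fs cells. CDH3, the P-cadherin, was expressed at 57.6 ± 5.06 CPM in control and 71.2, 63.7 and 69.0 CPM in Splice del, then C321fs, then A333fs cells. The medians of the tested genes of the list were 0.36, 0.16 and 0.30.

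Of 18 epithelial genes known as targets of ZEB or SNAI repression, 0 rose in any line, and 3 fell with Splice del, 3 with C321fs and 2 with A333fs. KRT8 and KRT18, the keratins of simple epithelia, fell in Splice del (-1.02 and -0.82) and C321fs cells (-0.84 and -0.65), and PKP3, a desmosomal plakophilin, fell in Splice del (-0.65) and A333fs cells (-0.68), all at an edgeR adjusted p of at most 3.96e-06. The list's medians were -0.19, -0.20 and -0.33 as counted and -0.08, -0.11 and -0.05 with the GC trend removed, when 2, 2 and 0 genes fell.

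Of 18 mesenchymal genes, 11 were tested, and 3 rose and 1 fell with Splice del, as did 3 and 1 with C321fs, and 4 rose and 3 fell with A333fs. SPARC, a matricellular protein, went from 0.246 ± 0.038 CPM (control) to 7.34 ± 0.756 (Splice del), 1.73 ± 0.083 (C321fs) and 11.9 ± 0.424 (A333fs; log2 fold changes 4.87, 2.79 and 5.58). VIM, the intermediate filament vimentin, rose by 1.46, 0.64 and 1.6 on the log2 scale. COL3A1, a fibrillar collagen, had log2 fold changes of -1.09, -1.03 and -1.65 and fell in all 3 lines. The largest adjusted p among these 9 values was 0.00103 in edgeR. The list's medians were 0.31, 0.24 and -0.12 as counted and 0.50, 0.38 and 0.12 with the GC trend removed, when 3 rose and 1 fell in each line. Its members COL1A2, MMP2 and POSTN had at most 2 counts in any library.

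Of 10 genes whose splicing ESRP proteins control, counted here per gene and not per splice form, 0 rose and 1 fell with Splice del and likewise with C321fs, and 1 rose and 2 fell with A333fs. SCRIB, a polarity protein, fell in Splice del (-0.63) and A333fs cells (-0.72), and FGFR2, a growth factor receptor, rose in A333fs cells (0.63). Their edgeR adjusted p-values were at most 1.19e-06. With the GC trend removed, neither was called. The medians were 0.01, -0.19 and -0.10 as counted and -0.02, -0.18 and -0.06 with the trend removed. Of 6 other splicing factors of EMT, 0 were called by edgeR or DESeq2, with 2, 5 and 5 at an unadjusted p under 0.05 and medians of 0.04, 0.08 and 0.06, which were -0.28, -0.10 and -0.14 with the GC trend removed.

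The last list held antisense and miRNA genes, 11 of 12 in the table and 4 of them tested. MIR205HG, the host gene of miR-205, rose in all 3 mutant lines, from 2.13 ± 0.262 CPM (control) to 6.21 ± 0.554 (Splice del), 3.84 ± 0.36 (C321fs) and 6.85 ± 1.63 (A333fs; log2 fold changes 1.53, 0.85 and 1.68, edgeR adjusted p = 3.63e-06, 0.00136 and 1.23e-06). Hairpins of the miR-200 family and miR-205 had 0 to 21 counts, and mature miRNAs were not measured. The medians were 0.13, 0.10 and 0.27.

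**Figure D4:**
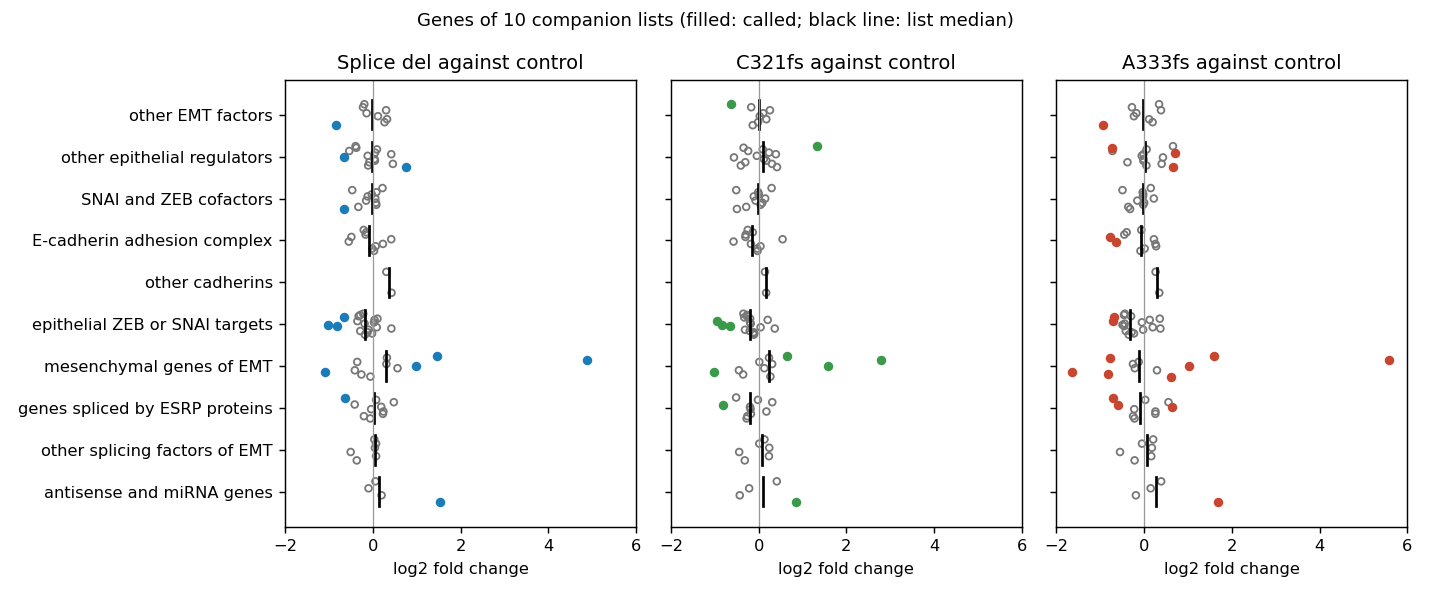
Log2 fold change against control of each tested gene of the 10 companion lists in Splice del, C321fs and A333fs cells; filled points passed the test, and the black line is the median of the list. SPARC is the point farthest to the right in each panel, and the list of epithelial ZEB or SNAI targets has filled points only below 0.

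The genes whose log2 CPM was most like that of a called member over the 12 libraries were ZNF503 (Pearson r = 0.95) and FOXD1 (0.93) for SNAI1, GRIK1 (0.95) and CFAP58-AS1 (0.94) for TWIST1, and RIPPLY3 (0.97) and TGFB1 (0.96) for OVOL1. These are descriptions over libraries that share line, depth and the GC trend. Among the members, OVOL2 and ESRP2 were most alike (r = 0.90).

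The libraries held 27872208 to 36788024 counted fragments. GATA3 itself averaged 1281 CPM in control and 1001 to 1142 CPM in the mutant lines, where fragments of the vector and of the cells' own gene cannot be told apart. The 8 luminal markers were present in every library (summed TPM 18930 to 21140 in control and 14080 to 16530 in the mutants). Of markers of other cells, PTPRC had 0 counts, 3 of 6 fibroblast and 3 of 4 endothelial markers had at most 3 counts in any library, and summed fibroblast markers were at 19.4 to 21.8 TPM in control and 16.03 to 22.4 TPM in the mutants. The 5 basal markers, of which KRT5 had at most 3 counts and ACTA2 gave most of the sum, totalled 14.4 to 15.6 TPM in control, 16.3 to 18.7 in Splice del, 16.9 to 23.5 in C321fs and 25.5 to 28.1 in A333fs libraries. The part of the luminal and basal markers in the results was not tested.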

How the data were processed

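RNA-seq counts of 12 T47D libraries, 3 for each of 4 lines, were analysed. ChIP-seq of the series was not analysed here. After Trimmomatic trimming and alignment to hg38, the authors used featureCounts 1.6.4 without strand on proper pairs, and the deposited values are raw counts per gene. The file header names STAR and the submitters' processing notes name HISAT2, so the aligner is not settled. The labels give another growth medium than the study's methods. Library depth was 27872208 to 36788024 fragments.

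Genes kept by filterByExpr (14789 of 26485) were scaled by TMM and fitted with edgeR 4.0.16 (quasi-likelihood, 1 coefficient per line, no covariates) in R 4.3.3. Calls needed a Benjamini-Hochberg adjusted p under 0.01 and a fold change over 1.5. Members under the filter had an exact permutation test. The trend over GC content and length was fitted by loess (span 0.3) per library and entered as offsets. The procedure was tested on simulated data.

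The members and lists were chosen with earlier results of these data known. Of each list, at most 3 genes called against control with the smallest adjusted p were named, as were the 2 genes most correlated with each called member (log2 CPM, prior count 2) and all members. ZEB1-AS1, GRHL2, CDH3, CDH6 and genes near 0 counts were named after their values were seen. CDH2, CDH11 and CTNND1 stand in 2 lists each. Some genes that the lists count are not reported here by name. MIR200CHG was not matched, and nectin genes carry older symbols. Promoter and miRNA sequences are RefSeq's on GRCh38.p14. Same-numbered libraries did not deviate together: residual correlations averaged -0.01 over 18 pairs (-0.12 to 0.17), with 2 over 0.1. Replicates of 1 line differed by more than counting noise, with a chi-square per gene of at least 2.12. Alternatives were RLE, upper-quartile and library-total scaling, no filter, at least 10 counts in every library, DESeq2 1.42.0, fits of 2 lines, other thresholds, a replicate block, trend removal and leaving out each library.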

Additional observations from a re-analysis of the deposited data

Results flagged for a closer look

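TWIST1 was flagged because its response to the mutants differed between lines by a test of that difference. Relative to control it was higher in A333fs cells (log2 fold change 0.73) and had a negative value in Splice del cells (-0.31). The difference between A333fs and Splice del cells was 1.04 on the log2 scale (edgeR quasi-likelihood adjusted p = 5.58e-04), with all 3 A333fs libraries above all 3 Splice del libraries. It rests on 54 to 75 counts against 31 to 37 counts.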

How the results depend on the processing

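Of 166 counts of called members under an alternative, 148 kept within 1.5 times the value reported. That share is not a measure of stability. A fall from 3 to 2 members, or from 6 to 4, stands among those kept. Here and for the single members below, many alternatives left out a library of a line outside the comparison. In A333fs against control the count was 6 with no minimum fold change, 0 by a test against a fold change of 1.5, and 2 to 3 when 1 library was left out. In Splice del against control it was 1 (SNAI1) when only these lines were fitted or at an adjusted p of 0.05, and 2 with no minimum fold change. In C321fs against control it was 1 with no minimum fold change. In A333fs against C321fs it was 1 (SNAI1) by library totals, with no filter or at an adjusted p of 0.05, 1 (TWIST1) with the GC and length trend removed, 3 with no minimum fold change, and 0 to 1 when 1 library was left out (SNAI1 without Splice del replicate 1, OVOL1 without C321fs replicate 2 or 3 or A333fs replicate 1, TWIST1 without A333fs replicate 2). In A333fs against Splice del it was 2 with no minimum fold change and 0 by the test against 1.5-fold. With a replicate block the counts stayed at 0, 0 and 3 against control and 0, 0 and 1 between mutants and no call changed. With no minimum fold change, 6080, 5449 and 7014 of all 14789 tested genes passed against control in Splice del, C321fs and A333fs cells. In A333fs against C321fs 2320 passed, and in A333fs against Splice del 1762.

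Of 882 values of single members, 855 kept their direction and side of the threshold, 5 lost and 9 gained a call, and 13 changed sign. OVOL1 in A333fs cells lost its call by upper-quartile scaling (-0.50), library totals (-0.47), trend removal (-0.34) and without control replicate 2 or A333fs replicate 2. SNAI1 and TWIST1 in A333fs against control kept their calls in every alternative fit of these values, with -1.08 to -1.42 and 0.64 to 0.89 when 1 library was left out, except in the test against a fold change of 1.5. Trend removal turned ESRP1 in Splice del (-0.10), C321fs (-0.086) and A333fs cells (-0.27) against control and in Splice del against C321fs (-0.019), and OVOL1 in C321fs cells (0.087). Upper-quartile scaling and library totals turned OVOL1 (0.037 and 0.12) and CDH1 (0.012 and 0.094) in C321fs cells. Leaving out 1 library turned values near 0. In Splice del against C321fs, OVOL2 ranged from -0.086 to 0.037, positive without C321fs replicate 1, and ESRP1 from -0.046 to 0.057, negative without C321fs replicate 1 and, at -0.0018, without Splice del replicate 3. In A333fs against Splice del, CDH1 ranged from -0.006 to 0.14, negative without A333fs replicate 3. The causes were not tested. Depth limits SNAI2, ZEB1 and ZEB2, and 15 to 75 counts stand behind SNAI1 and TWIST1.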
